A study of Glycine max with 54 samples.

Results

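Seed maturation proteins (PM genes), late embryogenesis abundant (LEA) proteins and a few proteins deposited with them were followed in developing soybean seeds. The members are the probe sets of the Affymetrix soybean array whose single gene symbol is PM followed only by digits, starts with LEA and then a digit or hyphen, or is SBP65, CP3 or MP2. The rule gave 35 probe sets of 27 genes, out of 37570 probe sets that are no control and 6029 genes with a single symbol. Of these, 34 probe sets of 26 genes reached log2 5 in 3 arrays or more and were tested. The exception was PM24, whose highest value was 3.83. More than 1 probe set stood for PM3, PM12, PM13, PM16, PM23, PM30 and PM37, and probe sets of 1 gene share its transcript and are not independent.

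LEA proteins are small, very hydrophilic proteins that accumulate in the embryo as the seed fills and dries, and they are known for protecting cells from loss of water. They were first described from the last phase of seed development, after most storage protein has been laid down, and several are induced by abscisic acid. In soybean the name seed maturation protein covers LEA proteins and also proteins of other families, such as chaperones and enzymes.

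Field-grown plants of the varieties Archer and Minsoy and of 2 recombinant inbred lines from their cross, the high yield line 6049-273 and the low yield line 6049-32, were sampled in Minnesota. Whole seeds were picked when 2, 3.5 or 5-6 mm long, roughly reproductive stages R4, R5 and early R6. The parents stood in the field in both 2007 and 2008, the recombinant lines only in 2007, which made 18 groups of 3 arrays, 54 arrays in all. In 2007 a line was 1 row, so its 3 samples share that row; in 2008 the 3 replicates were planted at different times and each sample was a pool from the rows of its replicate. Each yield class is a single line. Differences between lines in 2007, also between the recombinant lines, cannot be told apart from differences between their rows. No treatment or transgene was used, and seed length stands in for age.

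The deposited values are log2 signals in 3 sets of 18 arrays that were normalized apart: the parents of 2007, the parents of 2008 and the recombinant lines. Levels are therefore given by set, and all tests rest on differences taken within a set. In the parents' sets the scale has a floor at 1.96. Some probe sets repeat a higher low value, as PM34 did at 2.49 in every Minsoy 2007 2 mm array. A rise from either is not exact. The seed coat gene SCB1 was at 14.90 to 16.57 in every array, and the vegetative storage gene VSPA ranged from 5.96 to 13.90. Whole-seed RNA cannot tell apart fewer cells of a type from less RNA per cell.

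A stage score from 200 rising and 200 falling probe sets outside the members placed 3 arrays 2 stages from their label: Minsoy 2008 2 mm replicate 1, Minsoy 2008 5-6 mm replicate 1 and low yield line 2 mm replicate 1. These 3 arrays were kept, and the results that rest on them are given with and without them. Some arrays labelled 3.5 mm also scored nearest another stage, and were kept. Minsoy 2007 replicate 3 (2.15), Minsoy 2008 replicate 3 (0.88), high yield line replicate 3 (1.72) and low yield line replicate 2 (1.58) were nearest 5-6 mm. Archer 2008 replicate 3 (-0.73) and high yield line replicate 2 (-2.38) were nearest 2 mm. Replicates 1 and 2 of the high yield line at 2 mm were closer to each other (Pearson r = 0.997) than any other pair within a group. The difference between the 3' and 5' probe sets of actin, a sign of RNA quality, was -0.81 to -0.06 in the parents and 1.22 to 3.36 in the recombinant lines. Within the recombinant lines it was 1.35 to 2.32 at 2 mm, 1.38 to 3.36 at 3.5 mm and 1.22 to 1.67 at 5-6 mm. Comparing stages within that set thus does not remove it, and its part in the stage changes was not tested.

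**Figure D1:**
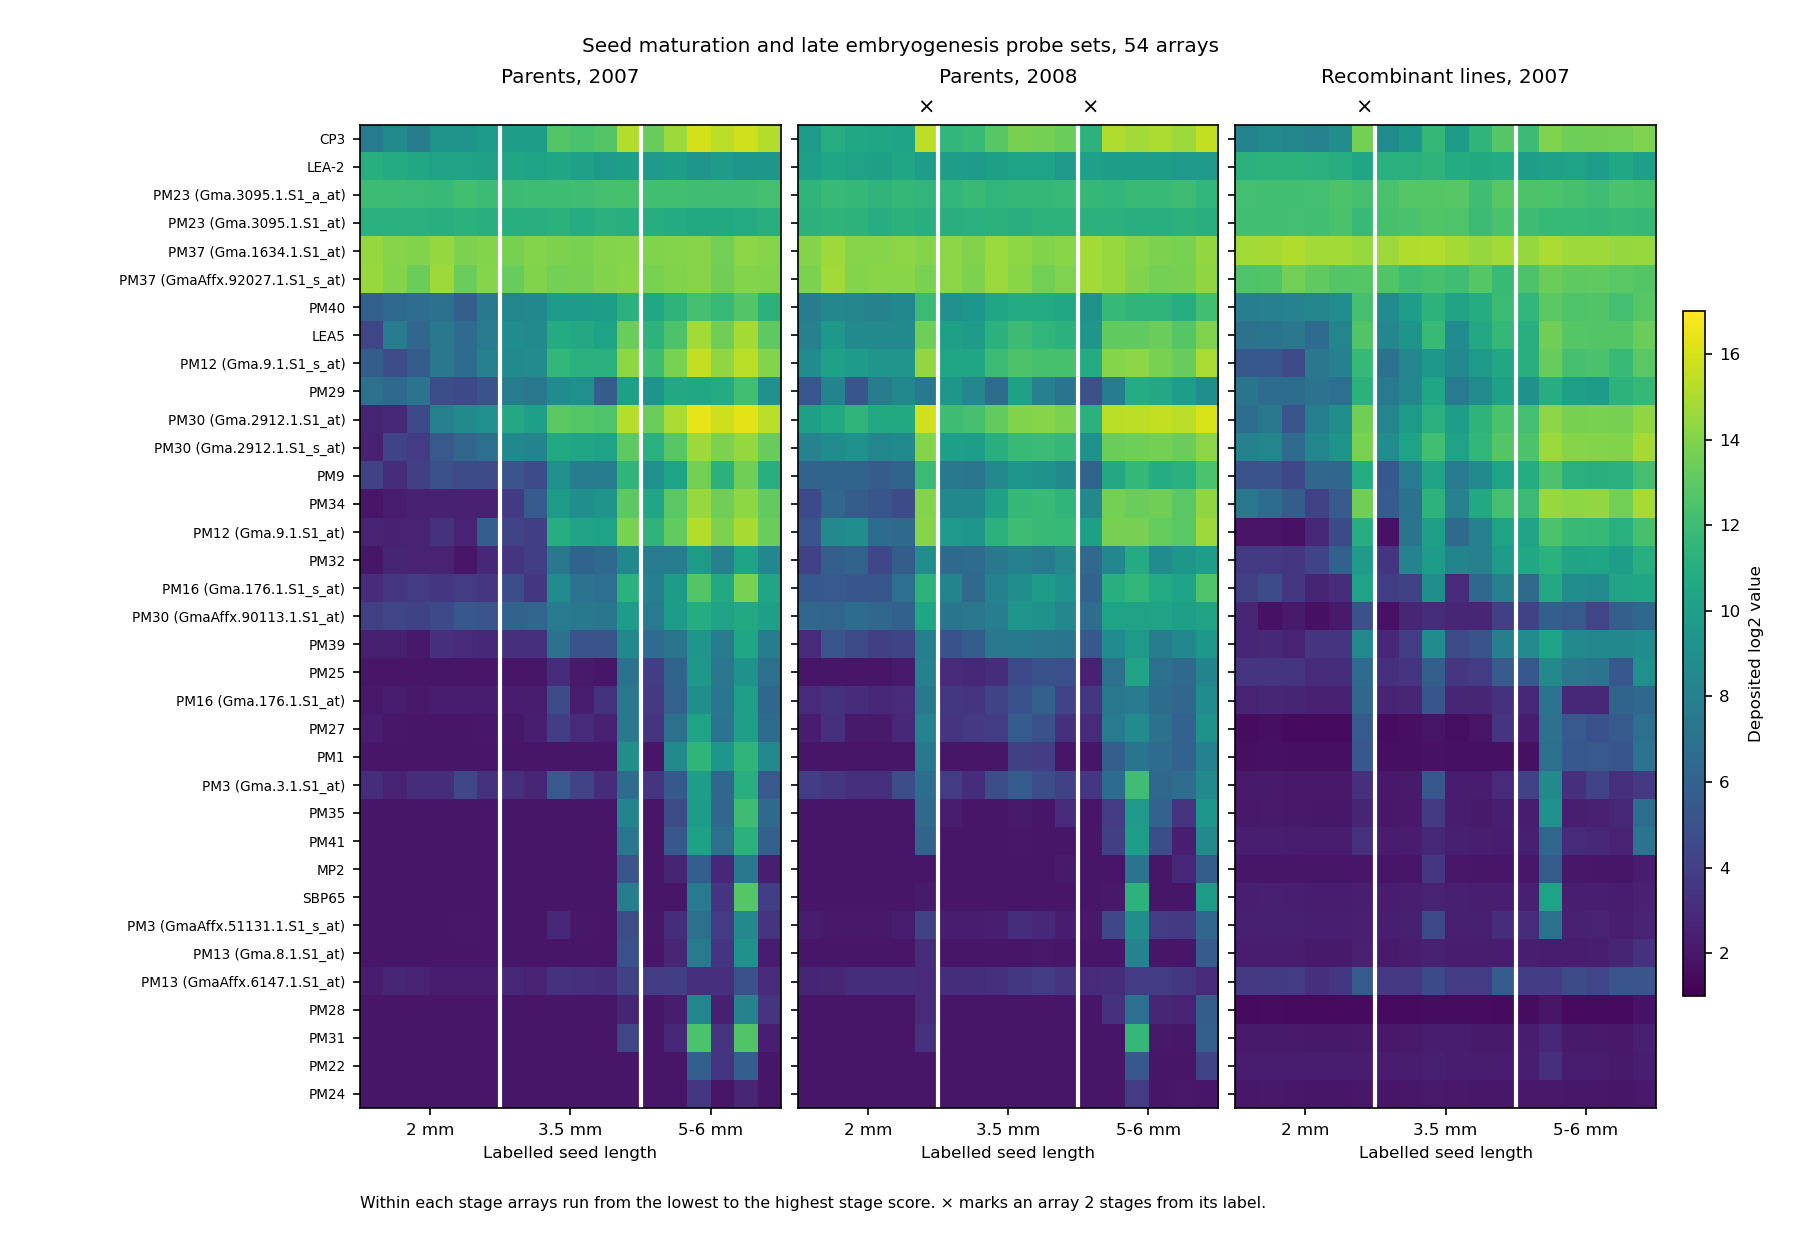
Deposited log2 values (colour, 1 to 17) of the 35 member probe sets (vertical axis) in the 54 arrays (horizontal axis), by set and labelled seed length, with arrays ordered by stage score within a length and a cross above the 3 arrays that lie 2 stages from their label. Most members go from dark to light from 2 to 5-6 mm, while PM23, PM37 and LEA-2 are light throughout.

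Most members rose strongly while the seeds grew. Between 2 and 5-6 mm, 30 of the 34 tested probe sets were higher and 2 were lower, against 25.5% higher and 37% lower of all 26482 tested probe sets (limma, Benjamini-Hochberg adjusted p under 0.05). By gene, 24 of 26 had a higher and 1 a lower call for the probe set with the highest mean. The median change was 3.23 on the log2 scale for the members and -0.06 for all tested probe sets. Each change is the mean of 6 differences, 1 for each line and year. The probe sets of PM31, PM28 and PM22, 1 of PM13 and 1 of PM3, 5 in all, passed the filter on low values only through 5-6 mm arrays. They could hardly be lower there. MP2 and SBP65 also reached log2 5 in 0 arrays at 2 mm. PM1, PM25, PM27, PM35, PM41, 1 probe set of PM16 and the other ones of PM3 and PM13 did so at 2 mm only in arrays against their label. These too had little room to fall. Without the filter 31 of the 35 were higher and 2 lower. Without the 3 arrays that went against their label 29 members were higher (26.8% of all).

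The largest rise was that of PM34, a protein related to glucose and ribitol dehydrogenases. In the parents of 2007 its lowest, median and highest log2 values were 1.99, 2.47 and 2.49 at 2 mm, 3.74, 9.12 and 13.00 at 3.5 mm and 10.40, 13.35 and 14.56 at 5-6 mm. The 2 mm and 5-6 mm arrays thus lay far apart. In the parents of 2008 it was at 4.59 to 6.28 in 5 of the 6 arrays at 2 mm, but at 14.05 in Minsoy replicate 1. At 5-6 mm it was at 12.88 to 14.33 in 5 of the 6, but at 8.53 in Minsoy replicate 1. The recombinant lines showed the same picture, with 4.07 to 7.42 at 2 mm in 5 of the 6 arrays, 13.53 in low yield line replicate 1 and 11.90 to 14.88 at 5-6 mm. Over all lines and years PM34 rose by 7.83 (SE 0.77, limma adjusted p = 1.4e-10).

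The LEA proteins proper rose over a wide range of sizes. PM30, a group 3 LEA protein, had with its highest probe set log2 values of 2.66, 6.29 and 9.04 (lowest, median and highest) at 2 mm in the parents of 2007 and of 13.35, 15.58 and 16.42 at 5-6 mm. Its 3 probe sets rose by 6.00 (SE 0.49), 5.61 (SE 0.49) and 3.58 (SE 0.36), so that they share the direction and differ in size. PM9, a group 4 LEA protein, went from 3.11, 4.36 and 4.98 at 2 mm to 9.04, 11.20 and 13.64 at 5-6 mm in that set. It rose by 5.28 over all lines (SE 0.54, limma adjusted p = 3.2e-10). LEA5 went from 4.36, 7.0 and 7.57 to 11.37, 13.31 and 14.87 in the same set. Its mean rise was 4.80 (SE 0.50). PM1, also a group 4 member, rose by 4.24 (SE 0.64), and MP2, a group 3 LEA protein also known as PM2, by 1.40 (SE 0.41, limma adjusted p = 0.00307).

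PM16, a further LEA protein, had probe sets that differed in level and in size of change. The one ending in s_at was at 3.01, 3.51 and 3.86 at 2 mm in the parents of 2007 and at 7.91, 10.57 and 13.79 at 5-6 mm, and rose by 5.24 (SE 0.68). The other was at 2.10, 2.26 and 2.26 and then at 3.66, 6.84 and 10.01, and rose by 3.11 (SE 0.51). In both, every 2 mm array of that set lay below every 5-6 mm array. PM25, whose Medicago truncatula namesake is a hydrophobic LEA protein, was at the floor in all 2 mm arrays of the parents of 2007 and at 3.91 to 9.56 at 5-6 mm. It rose by 4.13 (SE 0.56).

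Further members, not sorted here by family, rose as well. PM12 was at 2.49, 2.58 and 5.77 in the 2 mm parents of 2007 and at 11.40, 13.61 and 15.16 at 5-6 mm. This probe set rose by 7.61 (SE 0.74), and the other, ending in s_at and higher in level, by 5.42 (SE 0.45). CP3, a cysteine proteinase, was already at 7.50, 8.94 and 9.71 at 2 mm in that set and reached 13.25, 15.23 and 15.95. CP3 rose by 4.52 over all lines (SE 0.47, limma adjusted p = 4.2e-10). PM13, related to the calcium-binding caleosins of oil bodies, rose by 1.43 (SE 0.45) and 0.78 (SE 0.18) with its 2 probe sets. SBP65, a biotinylated protein known from pea seeds, rose by 2.51 (SE 0.77, limma adjusted p = 0.00476).

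The remaining risers have no role given here. PM32 was at 1.96, 2.60 and 2.77 in the 2 mm parents of 2007 and at 7.55, 8.20 and 10.27 at 5-6 mm, and rose by 4.92 (SE 0.46). PM39 (4.63), PM27 (4.0), PM40 (3.69), PM35 (3.34), PM29 (3.08), PM41 (3.06), PM3 (3.00 and 2.01 by probe set), PM31 (2.08), PM28 (1.45) and PM22 (0.88) also rose on the log2 scale.

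A few members did not take part in the rise. LEA-2, which carries the symbol of the atypical LEA-2 group, fell by 0.72 (SE 0.08, limma adjusted p = 1.23e-09) and did so in all 6 line and year means. In the parents of 2007 it stood at 10.17, 10.43 and 11.00 at 2 mm and at 9.34, 9.59 and 9.97 at 5-6 mm, with no overlap. In the recombinant lines it went from 10.42, 11.23 and 11.37 to 9.92, 10.09 and 10.55. In the parents of 2008 it went from 9.90, 10.15 and 10.48 to 9.58, 9.97 and 10.17, and there the arrays overlapped. In the within-line tests LEA-2 was called lower in Archer, Minsoy and the recombinant lines of 2007, and in neither parent in 2008.

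PM23 and PM37 were high in every array. PM37, a DnaJ-like chaperone, had log2 values of 13.84, 14.08 and 14.49 at 2 mm with its highest probe set in the parents of 2007 and of 13.60, 14.05 and 14.23 at 5-6 mm, which overlap. Its probe sets changed by -0.09 (SE 0.07, limma adjusted p = 0.260) and by -0.01 (SE 0.12, limma adjusted p = 0.924), and neither was called. The 2 probe sets of PM23 disagreed in direction. One was at 11.87 to 12.13 and 12.08 to 12.26 at 2 and 5-6 mm in the parents of 2007 and rose by 0.13 (SE 0.05, limma adjusted p = 0.0355). The other was at 11.06 to 11.21 and 10.72 to 11.03 and fell by 0.23 (SE 0.05, limma adjusted p = 3.25e-04). The call of the rise was lost under 6 of the alternative settings, given with the other settings in the closing section.

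**Figure D2:**
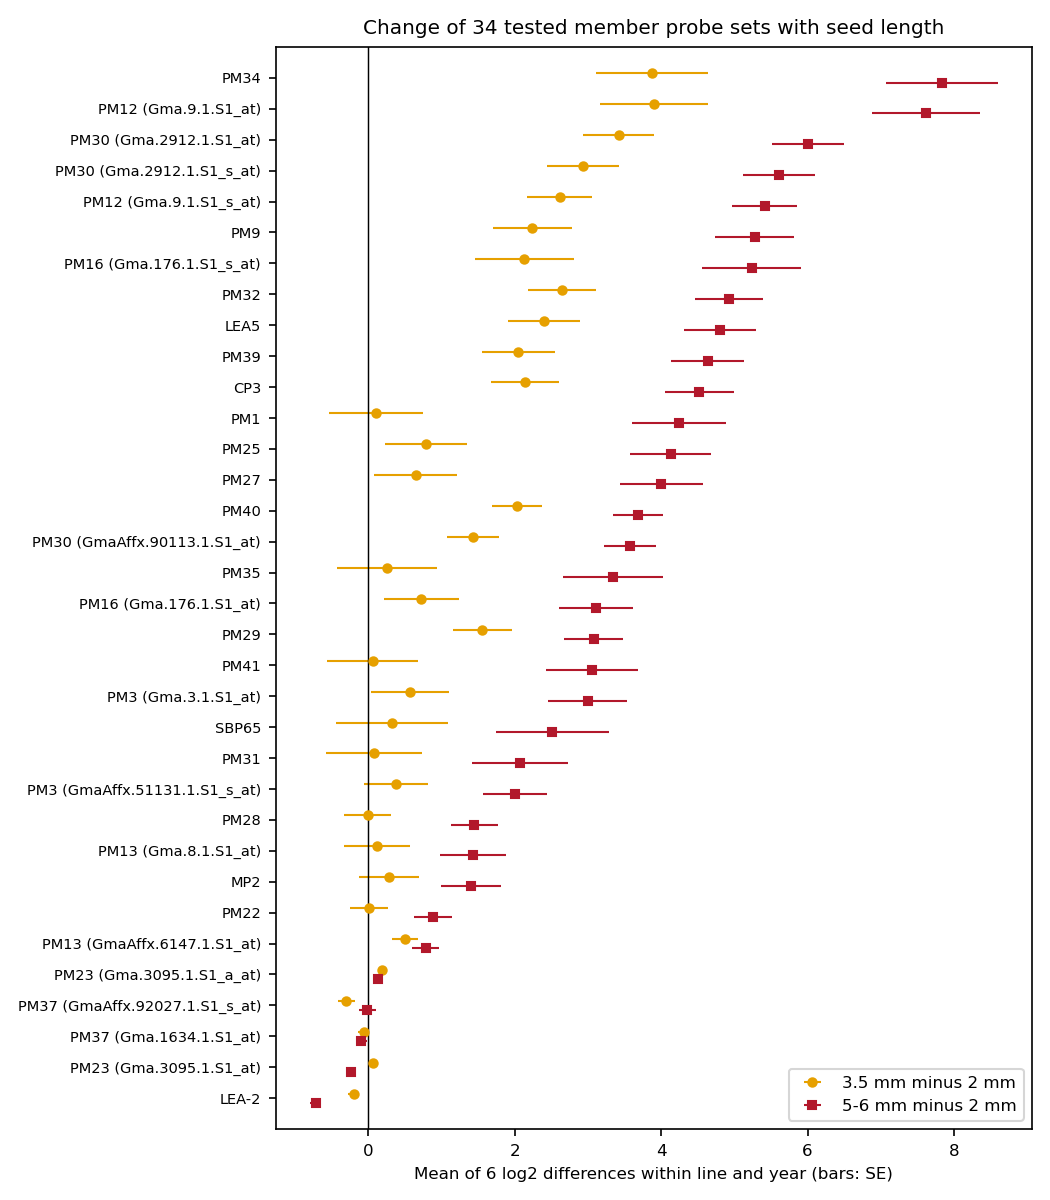
Log2 change from 2 to 3.5 mm (circles) and from 2 to 5-6 mm (squares) of the 34 tested member probe sets, each the mean of 6 differences within a line and year, with its SE as a bar. PM34 has the largest change at 5-6 mm (7.83) and LEA-2 the lowest (-0.72).

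The step at which the rise came divided the members. From 2 to 3.5 mm 16 were higher and 0 lower of 34 (14.2% and 13.5% of all tested). From 3.5 to 5-6 mm 29 were higher (21.8% of all) and 2 were lower (33.4% of all), LEA-2 (-0.52) and the PM23 probe set that fell overall (-0.31). Among the 27 probe sets that rose by 1 or more in all, 14 had reached 40.2% to 56.9% of the log2 rise by 3.5 mm. These belong to CP3, LEA5, PM9, PM12, PM16, PM29, PM30, PM32, PM34, PM39 and PM40. The other 13, of MP2, PM1, PM3, PM13, PM16, PM25, PM27, PM28, PM31, PM35, PM41 and SBP65, had reached -0.26% to 23.4% by then. No probe set fell between 23.4% and 40.2%, and PM16 had a probe set in each class. Without the 3 arrays against their label the classes covered 43.7% to 58.5% and 3.04% to 31.0%. The cut between the classes was set after the values had been seen, and a probe set that lies at the floor until late can show a late rise only. The calls and shares at 3.5 mm also rest on the arrays of that label that scored nearest another stage, and were not computed without them as a group.

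The members were above log2 5 in very different numbers of arrays. CP3, LEA-2, PM40 and both probe sets of PM23 and PM37 reached it in all 54. LEA5 reached it in 53, PM29 in 51, PM9 in 46, PM34 in 44, PM32 in 39 and PM39 in 34. PM25 reached it in 22, PM27 in 19, PM1 in 18, and PM35 and PM41 in 11 each. For these 5 genes, every 2 mm array over 5 was one of the 3 that went against their label. At the other end SBP65 and MP2 reached it in 6 arrays each, PM31 and PM28 in 4 and PM22 in 3.

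Most of these sets of arrays lay inside one another. Of the 15 probe sets over log2 5 in 1 to 26 arrays, 105 pairs can be formed, and in 81 of them every array of the rarer probe set was also an array of the commoner one. In 9 pairs 1 array lay outside, and in 15 pairs at least 2 did. The highest PM13 probe set shared 0 arrays with PM31, MP2 or SBP65. PM3 and PM13 each enter with 2 probe sets, so the pairs are not independent. The share of nested pairs among probe sets outside the members was not counted, so the nesting cannot be called particular to the members. The count of members at log2 5 or more in an array was 9 to 14 at 2 mm, 14 to 28 at 3.5 mm and 19 to 33 at 5-6 mm in the parents of 2007. In the parents of 2008 it was 16 to 26, 19 to 22 and 18 to 33, and in the recombinant lines 12 to 23, 14 to 21 and 19 to 29. The 26 at 2 mm and the 18 at 5-6 mm in 2008, and the 23 at 2 mm in the recombinant lines, are again the 3 arrays against their label.

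**Figure D3:**
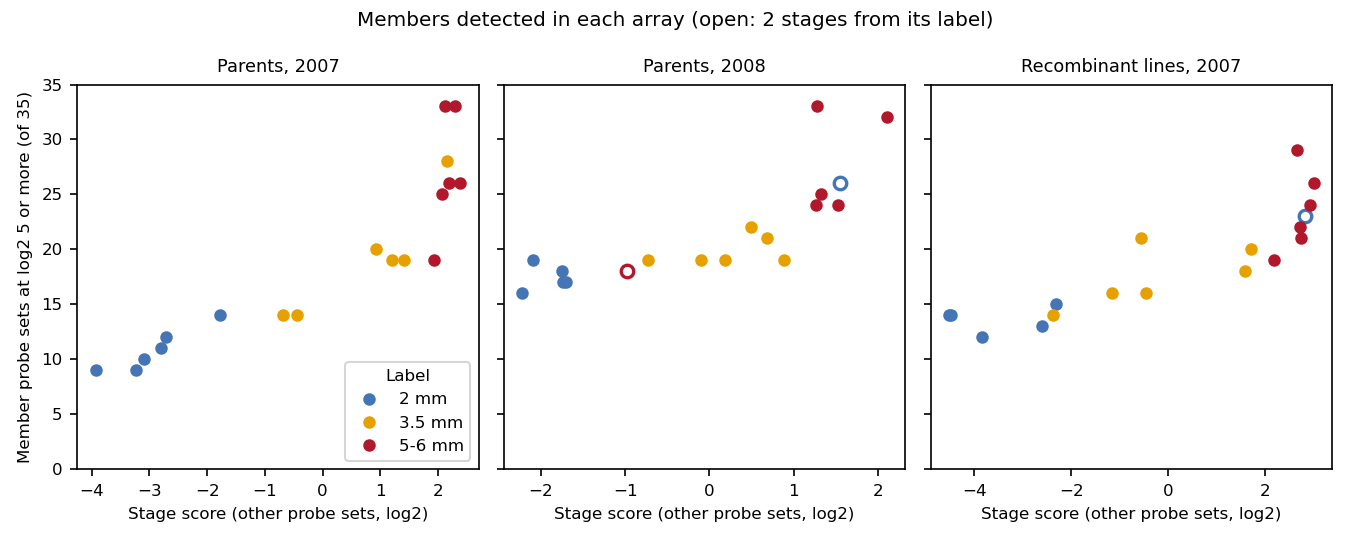
Number of the 35 member probe sets at log2 5 or more (vertical axis) against the stage score of other probe sets (horizontal axis, log2) in each array, by set, with colour for the labelled seed length and open circles for the 3 arrays 2 stages from their label. The open circles sit with the arrays of the stage their score gives, for example 26 members in Minsoy 2008 2 mm replicate 1.

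The members reached last were on in some 5-6 mm arrays and off in others of the same group. SBP65 had log2 values at 5-6 mm of 1.96, 3.47 and 1.96 in Archer and 3.97, 7.64 and 12.80 in Minsoy in 2007. In 2008 it had 1.96, 11.33 and 1.96 in Archer and 1.96, 2.09 and 9.73 in Minsoy. It had 2.36, 2.28 and 2.45 in the high yield line and 2.42, 10.29 and 2.35 in the low yield line. A single array thus carried the signal in 3 of these 6 groups, and none did in 2 of them.

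MP2 was over log2 5 in exactly the same 6 arrays as SBP65. These were Minsoy 2007 3.5 mm replicate 3 and 5-6 mm replicates 2 and 3, Archer 2008 5-6 mm replicate 2, Minsoy 2008 5-6 mm replicate 3 and low yield line 5-6 mm replicate 2. PM31 was over it in 4 of them, at 12.49 and 12.63 in Minsoy 2007, 11.63 in Archer 2008 and 5.85 in Minsoy 2008. In the low yield line array it was at 2.84, against 2.26 and 2.16 in the other two, and in the high yield line at 2.16, 2.09 and 2.41. PM28 and one probe set of PM13 were over 5 in the same 4 arrays as PM31, and PM22 in 3 of them. GM2S-1, a 2S albumin and no member, was at 14.44 to 15.45 in the 5 arrays at 5-6 mm named here. The stage score of low yield line 5-6 mm replicate 2 (2.67) lay between those of its replicates (2.17 and 2.74). The 3.5 mm array among them, Minsoy 2007 replicate 3, had a score of 2.15, nearest 5-6 mm. Whether the arrays named here differ from their replicates in exact seed age was not tested.

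**Figure D4:**
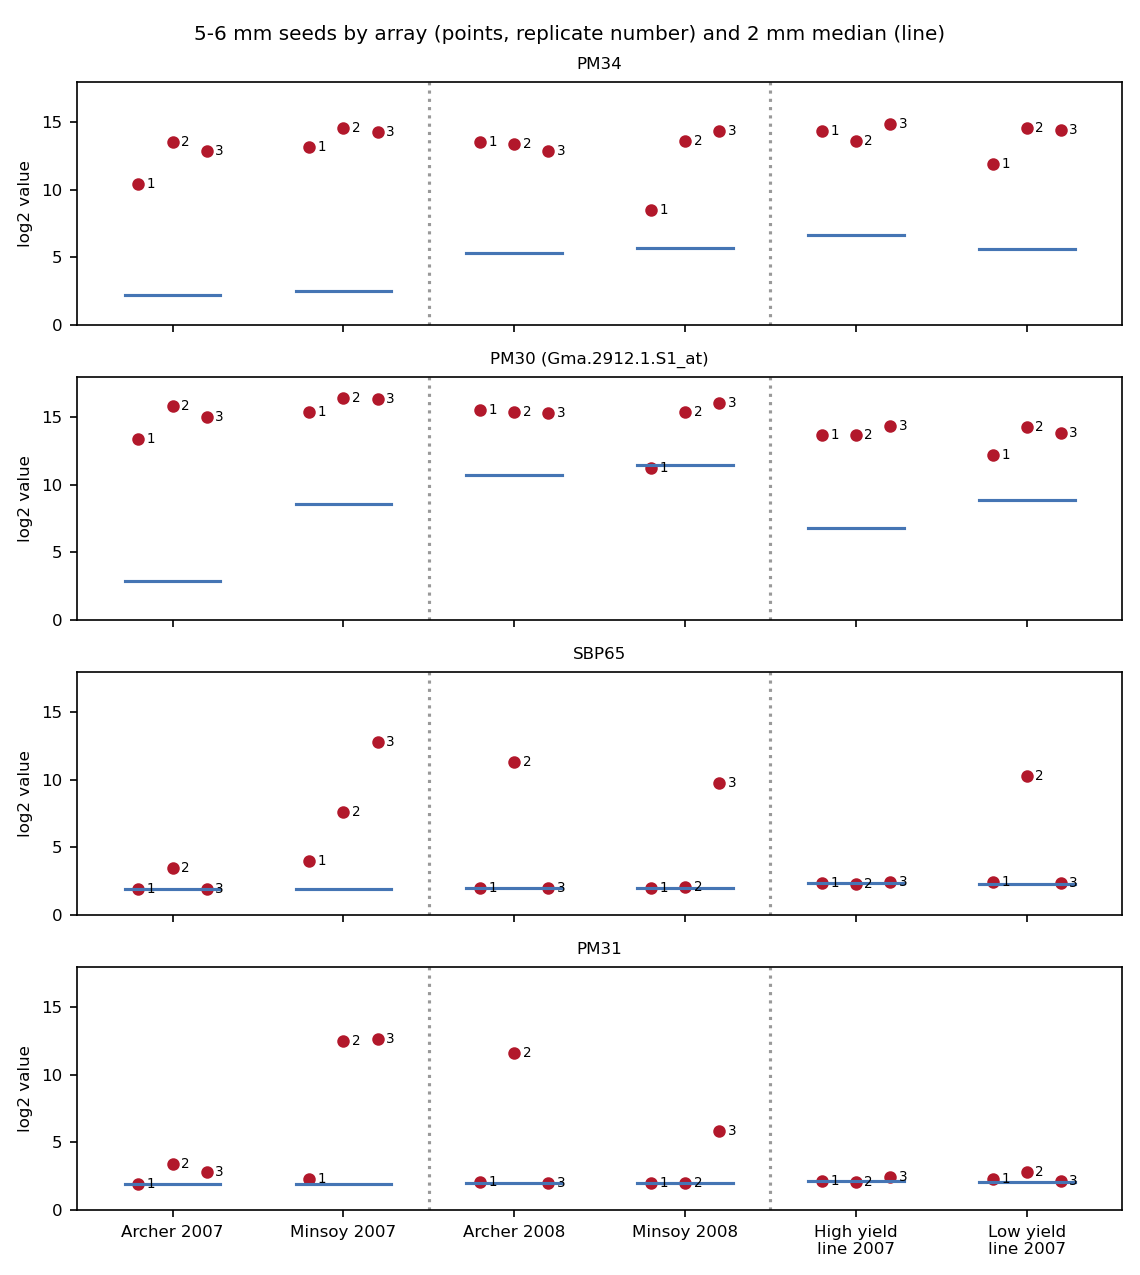
Log2 values at 5-6 mm of PM34, PM30, SBP65 and PM31 by array (points, with replicate number) in each line and year, and the median at 2 mm (line). PM34 and PM30 are high in nearly all 5-6 mm arrays, while SBP65 and PM31 are high in 1 or 2 arrays of some groups and near the floor in the rest.

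Within single lines and years the rise was unequal in what the test could call. From 2 to 5-6 mm, 19 members were higher in Archer 2007 (12.9% of all tested), 29 in Minsoy 2007 (18.4%), 19 in Archer 2008 (5.66%) and 18 in the high yield line (15.8%). In Minsoy 2008 the limma test called 0 (0% of all; 6 at an unadjusted p under 0.05), and in the low yield line 0 were higher (0.102% of all) and LEA-2 was lower (15 at an unadjusted p under 0.05). Those groups hold the 3 arrays against their label. Without these arrays 19 members were higher in Minsoy 2008 (10.1% of all), 16 in the low yield line (7.72%) and 22 in Archer 2008 (9.28%), which shares the estimate of spread. The arrays left out were picked by a stage score from these same data, so a gain in stage calls follows in part from that choice. Minsoy 2008 then lacks 1 array at 2 mm and 1 at 5-6 mm. Leaving out any 1 of the 2 mm and 5-6 mm arrays of Archer 2008 left 0 to 8 calls there, 0 without 2 mm replicate 1 or 5-6 mm replicate 3. A call in 1 line and none in another is no difference between them.

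Whether the arrays overlapped was also counted. Every 5-6 mm array was above every 2 mm array for 23 of the 35 members in Archer 2007 (24.4% of all tested probe sets), 28 in Minsoy 2007 (20.4%), 28 in Archer 2008 (19.5%) and 23 in the high yield line (24.8%). This held for 2 in Minsoy 2008 (3.05%) and 9 in the low yield line (5.93%).

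Archer and Minsoy were compared over stages and years, as the mean of 6 differences. PM29 (+1.5, SE 0.40, limma adjusted p = 0.0118) and LEA-2 (+0.25, adjusted p = 0.0307) were higher in Archer, 2 of 34 against 5.01% of all tested. The highest PM30 probe set (-1.73, SE 0.49, limma adjusted p = 0.0165) and PM12 s_at (-1.40, adjusted p = 0.0385) were lower in Archer, 2 of 34 against 4.92%. A share of 4 in 34 is near the background. Leaving out single arrays took the call from LEA-2 in 10 fits and from PM12 in 18 of 54 (limma adjusted p up to 0.0818), but from PM29 and PM30 in none. Without the 3 arrays 2 were higher (6.04% of all) and 7 lower (6.41%).

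PM29 was the member with a higher level in Archer in 2008. In that year its log2 values in Archer were 8.25, 8.48 and 7.75 at 2 mm, 10.15, 8.40 and 9.45 at 3.5 mm and 10.63, 10.88 and 9.91 at 5-6 mm. In Minsoy they were 7.45, 5.32 and 5.29, then 7.98, 6.64 and 7.14, then 5.00, 7.79 and 8.98. Archer lay above Minsoy at each stage without overlap. The Minsoy values of 7.45 at 2 mm and 5.00 at 5-6 mm come from arrays against their label, and without them there was no overlap either. The mean difference in 2008 was 2.48 (SE 0.57, limma adjusted p = 0.00626), and PM29 was the 1 member called that year (1.31% of all were higher). The call held under all 15 alternative settings, with differences of 2.19 to 2.80, and leaving out these arrays was among them.

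In 2007 PM29 was at 6.48, 6.93 and 7.12 in Archer and 4.62, 5.08 and 4.86 in Minsoy at 2 mm, again with Archer higher and no overlap. At 3.5 mm the values were 7.43, 7.77 and 9.04 against 5.71, 8.76 and 10.06, and at 5-6 mm 9.29, 10.83 and 10.68 against 9.07, 10.52 and 12.13. The later stages overlapped. The mean difference in 2007 was 0.53 (SE 0.57, limma adjusted p = 0.639). The years were not shown to differ: in the contrast of 2007 minus 2008, limma called 0 of 34 members (6 at an unadjusted p under 0.05; 1.47% of all called). It called 1 without the 3 arrays, 2 without Minsoy 2007 5-6 mm replicate 1 and 7 with array weights. With the stage score as a covariate PM29 remained called over both years (+2.00, limma adjusted p = 2.87e-04; 6.33% of all) and in 2008 (+2.80, limma adjusted p = 3.75e-05; 3.59% of all).

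PM30 was lower in Archer in 2007, most of all at 2 mm. Each line was 1 row that year, so line and row cannot be told apart in any comparison of lines in 2007. With its highest probe set the 2007 values at 2 mm were 2.86, 2.66 and 4.56 in Archer and 8.56, 9.04 and 8.01 in Minsoy. At 3.5 mm they were 10.03, 10.65 and 12.76 against 12.58, 12.98 and 15.22, and at 5-6 mm 13.35, 15.78 and 14.98 against 15.37, 16.42 and 16.32. The lines were apart at 2 mm and overlapped at the later stages. Between same-numbered arrays at 3.5 mm Archer was lower by a like amount each time (-2.54, -2.33 and -2.46), which was not called with the replicate block within that stage (limma adjusted p = 0.398). The difference at 2 mm was -5.18 (SE 1.20, limma adjusted p = 0.00871), the 1 member called there (0.755% of all were lower). The call was lost in 3 of the fits that left out 1 array (limma adjusted p = 0.0506 to 0.0648). In 2008 the 2 mm values were 10.75, 10.71 and 10.71 in Archer and 15.83, 10.08 and 11.46 in Minsoy, which overlap, and the first Minsoy array is one that went against its label.

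Over the 3 stages of 2007, 1 member was higher in Archer (5.06% of all) and 5 probe sets were lower (4.03% of all). The higher one was LEA-2 (+0.43, limma adjusted p = 0.00919), at 10.85, 11.00 and 10.61 in Archer and 10.19, 10.17 and 10.25 in Minsoy at 2 mm, without overlap. At 3.5 mm its lines overlapped, and at 5-6 mm Archer was at 9.68, 9.79 and 9.97 and Minsoy at 9.49, 9.34 and 9.40. Lower were PM30 with 2 probe sets (-2.99, SE 0.69, limma adjusted p = 0.00324, and -2.18, adjusted p = 0.0411), PM12 s_at (-2.13, adjusted p = 0.0264), PM9 (-2.37, adjusted p = 0.0435) and PM28 (-1.56, adjusted p = 0.0230). Leaving out 1 array took the call from PM30 s_at in 11 fits, PM12 in 7, PM9 in 13 and PM28 in 3 (limma adjusted p up to 0.139). With the 2008 replicate number as a block PM9 missed the threshold (adjusted p = 0.0520). Without the 3 arrays 1 member was higher (6.74% of all) and 15 were lower (5.49% of all), from 11 genes. None of the 3 arrays is a parent array of 2007, so the differences themselves stay the same. Only the estimate of spread shared by all groups changes.

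The stage score moved with these lower values: in 2007 it was -3.93 to -3.09 at 2 mm and -0.68 to 1.20 at 3.5 mm in Archer, and -2.79 to -1.78 and 0.92 to 2.15 in Minsoy. With the score as a covariate the limma fit called PM30 alone in 2007 (-1.72, adjusted p = 0.0160; 3.28% of all called). The score itself comes from genes that change with stage, so a difference in age and a difference between the lines cannot be told apart by it.

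PM9 and PM12 had lower means in Archer at each stage of 2007. PM9 was at 3.11, 4.09 and 4.05 in Archer and 4.73, 4.63 and 4.98 in Minsoy at 2 mm, without overlap. It was at 4.72, 5.20 and 7.78 against 7.69, 9.05 and 11.49 at 3.5 mm, and at 9.04, 11.30 and 10.25 against 11.10, 13.64 and 13.54 at 5-6 mm. PM12 s_at was at 4.78, 5.74 and 5.68 in Archer and 6.64, 7.97 and 7.43 in Minsoy at 2 mm. At 3.5 mm it was at 8.70, 8.65 and 11.22 against 11.23, 11.62 and 14.25, and at 5-6 mm at 12.05, 14.31 and 13.78 against 14.05, 15.53 and 15.33. A single Archer array lay above the lowest Minsoy array for PM9 at 3.5 and 5-6 mm and for PM12 at 5-6 mm, and PM12 did not overlap at 2 and 3.5 mm.

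At 5-6 mm in 2007, 4 members were lower in Archer (3.05% of all), and all 4 belong to the genes seen in few arrays. Each reached log2 5 in 3 or 4 arrays, of which 2 were Minsoy arrays of this group, so they passed the filter through the high values compared here. Without the filter limma also called 4 members there (adjusted p = 6.78e-04 to 0.0490). PM31 was at 1.96, 3.38 and 2.84 in Archer and 2.33, 12.49 and 12.63 in Minsoy (-6.42, limma adjusted p = 0.0130). PM28 was at 1.96, 2.38 and 2.30 against 3.46, 8.35 and 8.19 (-4.45, limma adjusted p = 5.96e-04), the one of the 4 without overlap. PM13 was at 1.96, 3.49 and 2.74 against 2.21, 7.56 and 9.13 (-3.57, adjusted p = 0.0411), and PM22 at 1.96, 3.40 and 1.96 against 1.96, 5.76 and 5.75 (-2.05, adjusted p = 0.0412). In each, 2 Minsoy arrays were high and the other low, and leaving out 1 array took the call from PM31 in 3 fits, PM13 in 5 and PM22 in 4 (limma adjusted p up to 0.351). The count of members called ran from 1, without Archer replicate 1 or Minsoy replicate 2 or 3, to 12, without Minsoy replicate 1. With a replicate block within this stage, where all 3 same-numbered pairs of arrays deviated together, limma called 9 (12.3% of all), the further 5 being SBP65, PM35, PM41 and both probe sets of PM3. Without the 3 arrays against their label 9 were called as well, though none of these arrays enters this comparison and only the shared estimate of spread changes. At 5-6 mm in 2008 the highest array was instead Archer replicate 2, with 11.63 for PM31, 6.85 for PM28, 8.17 for PM13 and 5.36 for PM22. At 3.5 mm in 2007 limma called 0 members (10 at an unadjusted p under 0.05; 1.47% of all called), and 0 with the block within that stage, but 5 without the 3 arrays and 11 with array weights, all lower in Archer. Here too the 3 arrays enter only through the shared estimate of spread.

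**Figure D5:**
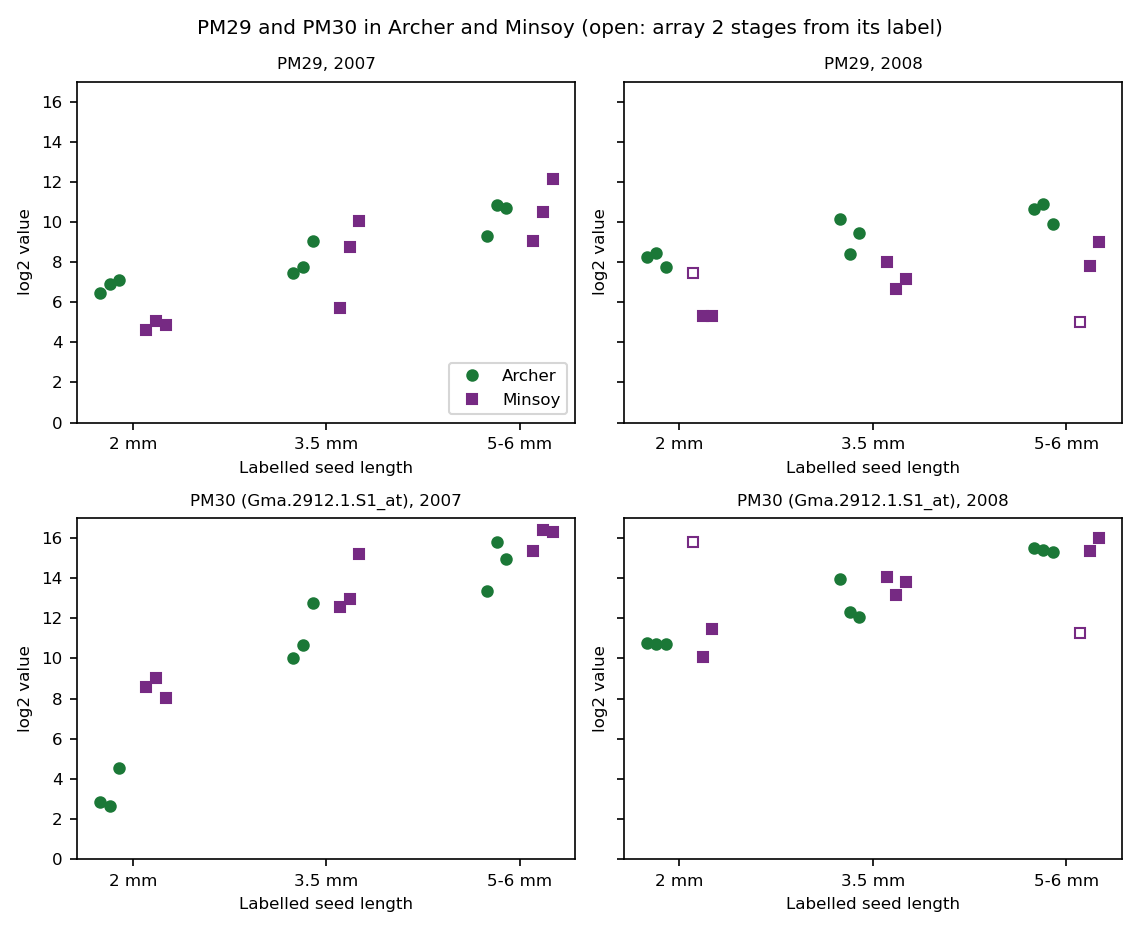
Log2 values of PM29 (top) and PM30 (highest probe set, bottom) by array in Archer (circles) and Minsoy (squares) at each labelled seed length in 2007 and 2008, with open symbols for arrays 2 stages from their label. PM29 in 2008 is higher in Archer at each length, and PM30 in 2007 is lower in Archer at 2 mm (2.66 to 4.56 against 8.01 to 9.04).

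Between the high and low yield lines limma called 0 members over the 3 stages (4 at an unadjusted p under 0.05; 5.37% of all called). PM29 differed there by -0.24 (SE 0.57) and PM34 by -0.76 (SE 1.08). At 2 mm PM12 s_at was lower in the high yield line, at 5.35, 5.42 and 4.72 against 11.70, 7.94 and 7.32, with no overlap (-3.82, SE 1.09, limma adjusted p = 0.0240; 3.49% of all were lower). The array at 11.70 is the one that went against its label. Without it the difference was -2.46 and was not called (limma adjusted p = 0.286), and the call was also lost without any 1 of the high yield line's arrays (0.0648 to 0.0693) or with its near-identical pair averaged (0.0685). At 3.5 and 5-6 mm limma called 0 members (0 and 1 at an unadjusted p under 0.05; 1.66% and 0% of all called). The 0 at 5-6 mm thus holds for every tested probe set and is not particular to the members. The seed coat gene Ep was at 9.48 in high yield line 5-6 mm replicate 1, against 14.65 and 14.34 in its replicates. In the low yield line at 5-6 mm Ep was at 9.28 to 9.60. Low yield line 2 mm replicate 1 had Ep at 14.70, against 7.31 and 6.99 in its replicates. Whether these arrays hold the line of their label was not tested.

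No member's change from 2 to 5-6 mm was called as different between lines. For Archer against Minsoy limma called 0 of 34 (4 at an unadjusted p under 0.05; 0.0566% of all called), and for the high against the low yield line 0 (3 at an unadjusted p under 0.05; 1.18% of all called). The change of PM30 in Archer was 6.66 larger in 2007 than in 2008 (SE 1.69, limma adjusted p = 0.12), and without the 3 arrays this difference had a limma adjusted p of 0.00225. No Archer array is among the 3, so the size of the difference stays and only the shared estimate of spread changes.

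Other seed gene lists, chosen by symbol, moved beside the members from 2 to 5-6 mm in the same fit. Of 11 tested genes in the storage protein list 10 rose, led by the glycinin genes GY1 (8.75) and GY2 (7.42) and by GM2S-1 (7.95). The 1 that fell was GBP (-0.18), and the median of the list was 5.63. All 9 genes of the protease inhibitor list rose, among them D-II (8.39), P34 (7.79) and KTI1 (7.48). A symbol in a list, such as GBP or P34, need not name a storage protein or an inhibitor. All 5 listed seed regulators rose, NF-YA13 by 2.92, MFT by 2.51 and WRI1B by 2.37. At 3.5 mm 0 genes of the storage list, 1 of the inhibitor list and all 5 regulators had already been called higher than at 2 mm. Of the 34 member probe sets 16 had.

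The heat shock and abscisic acid lists held few genes that rose. In the heat shock list 0 of 6 rose and 5 fell, led by HSP17.5-E (-2.29) and HSP22.5 (-2.15). Of 5 abscisic acid genes 1 rose and 3 fell, the protein kinase genes SPK-1 (-2.81), SPK-4 (-1.49) and SPK-2 (-0.94). GOLS, which makes galactinol for raffinose sugars, rose by 0.79, and the annotation used names no oleosin gene. Of the tissues a whole seed sample may hold, the seed coat list had 2 of 3 rise (HPS by 3.42 and Ep by 2.19) and SCB1 fall by 0.31. The vegetative storage list had 1 of 4 rise and 3 fall (LOXB1 -4.49), and the photosynthesis list 4 of 6 rise and 1 fall. Their part in the members' changes was not tested.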

How the data were processed

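Total RNA of whole seeds was labelled with biotin and hybridized, 1 array per sample, per the labels' protocols. The authors deposited log2 values, made with GCRMA per the submitters' processing notes (version not given in the sources used here). Of 37744 probe sets, 126 with Affymetrix control names and 48 for ribosomal RNA were not used. Probe sets at log2 5 or more in at least 3 arrays (26482) were fitted with limma 3.58.1 in R 4.3.3, as 1 model of 18 group means with contrasts taken within sets, and p-values were adjusted over all of them by Benjamini-Hochberg at 0.05. Arrays carry no read depth; their number limits the precision. GEO's annotation gave 8677 probe sets 1 gene symbol and 370 several, and only the former were named. The members and lists were chosen with earlier results of these data known. Values by array are given for the largest rises, for members that fell or were not called, for members called between lines and for genes whose probe sets disagree. Up to 3 genes of each other list are named, and GBP besides. The title of low yield line 3.5 mm replicate 3 was followed where its description names the other line. Replicate numbers mark plantings in 2008, per the labels, and have no stated meaning in 2007. Residuals of same-numbered arrays of both lines correlated between -0.25 and 0.48 in the parents of 2008, -0.47 and 0.55 in the parents of 2007 and -0.22 and 0.51 in the recombinant lines. All 3 pairs were over 0.1 in 3 of 9 comparisons at a single stage, the parents of 2007 at 3.5 mm (0.25 to 0.40) and 5-6 mm (0.19 to 0.55) and the recombinant lines at 3.5 mm (0.26 to 0.51), and a block within these stages was fitted as an alternative. All p-values use 1 estimate of spread per probe set, shared by the 18 groups of both years. What the 2007 groups add to that estimate is the spread between samples of a row. The code was tested on simulated data in which the changed probe sets were known. No sequence tables were used here.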

Additional observations from a re-analysis of the deposited data

How the results depend on the processing

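Alternatives were no filter or a stricter one, quantile normalization, median centring, array weights, each set or year alone, a replicate block, leaving out each array, and, chosen after seeing the data, leaving out the 3 arrays against their label, a block for 2008 only, a block within the 3 stages whose numbers pair, and the stage score as a covariate. With the replicate block in every set the calls were 32 from 2 to 5-6 mm, 17 to 3.5 mm, 31 between 3.5 and 5-6 mm, 4 for Archer against Minsoy and 0 for the recombinant lines; it lost the call of PM30 s_at in 2007 (limma adjusted p = 0.0590) and no other named for the lines. The stage calls fell from 32, 16 and 31 to 4, 0 and 0 with the 2008 arrays alone, where 28 members lost theirs (adjusted p = 0.050 to 0.573). Called within a line, the low yield line (1) gave 7 with no filter, 0 with quantile normalization, median centring, sets apart or 2007 alone, 20 with array weights, 18 without the 3 arrays with or without the block, and 2 with the block within stages. Archer 2008 (19) gave 32 with array weights and 12 alone by set or year. Minsoy 2008 (0) gave 21 with array weights, 19 without the 3 arrays and 18 with the block added. Archer against Minsoy (4) gave 17 with array weights, 1 in 2008 alone, 9 without the 3 arrays, 12 with the block added and 1 with the covariate. In 2007 (6) it gave 14, 10 with sets apart, 16, 15 and 1, and in 2008 (1) 2 with array weights. The recombinant lines (0) gave 3 with array weights and 1 with the covariate, PM13 (+0.78). The interaction of Archer and Minsoy (0) gave 2 with array weights and 1 in 2007 alone. PM37 changed sign at 0.0070 with array weights and at 0.041 and 0.040 in 2008 alone, and in 8 fits that left out an array (range over all such fits -0.067 to 0.039); it was called in none. The rise of the PM23 probe set was lost with quantile normalization (limma adjusted p = 0.122), median centring (0.0759), 2007 alone (0.131), 2008 alone (0.222) and without the 3 arrays (0.0753; 0.0840 with the 2008 block added). At single stages, Archer against Minsoy in 2007 gave, at 2 mm (1), 3 with array weights and 2 without the 3 arrays with the block; at 3.5 mm (0), 11 with array weights, 1 with sets apart and 5 without the 3 arrays with or without the block; and at 5-6 mm (4), 2 with the stricter filter, 1 with sets apart, 9 without the 3 arrays, 8 with the 2008 block added, 9 with the block within stages and 9 with the covariate. With array weights the stages of 2008 (0 each) gave 1, 11 and 5. The contrast of the years (0) gave 7 with array weights and 1 without the 3 arrays, and that of Archer's stage change (0) 6 and 1. The recombinant lines at 2 mm (1) gave 2 with array weights or the block within stages and 0 with sets apart, without the 3 arrays with or without the block, or with near-identical arrays averaged. Leaving out 1 array gave, at single stages of 2007, 0 to 1, 0 to 1 and 1 to 12 for Archer against Minsoy, 0 to 2 for the contrast of the years and 0 to 3 for the recombinant lines at 2 mm. It gave 31 to 32, 15 to 18 and 30 to 31 stage calls. Within lines it gave 15 to 21 in Archer 2007, 27 to 30 in Minsoy 2007, 0 to 20 in Archer 2008 (0 without 2 mm replicate 1 or 5-6 mm replicate 3), 0 in Minsoy 2008, 17 to 20 in the high and 0 to 16 in the low yield line (16 without 2 mm replicate 1, 0 without 5-6 mm replicate 1). Between lines it gave 2 to 11 for Archer against Minsoy (2 without Archer 2007 3.5 mm replicate 2, 11 without Minsoy 2008 5-6 mm replicate 1), 2 to 17 in 2007 (2 without Minsoy 3.5 mm replicate 3, 17 without Minsoy 5-6 mm replicate 1), 1 in 2008 and 0 to 1 for the recombinant lines. PM29 over both years (1.30 to 1.66) and in 2008 (2.10 to 2.76) and PM30 over both years (-1.98 to -1.45) and in 2007 (-3.25 to -2.71) kept their calls in these fits. Without the 3 arrays the stage calls were 31, 21 and 30. The causes were not tested. Values near the floor limit the size of a fold and can bar a fall.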
